A study of Mus musculus with 4 samples.

Results

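The Jun family genes *Jun*, *Junb* and *Jund*, 3 of 21911 protein-coding genes, were examined for marks of histone 3 phosphorylated at serine 10 (H3S10ph) in mouse gastrocnemius muscle. Taken as members were all H3S10ph peaks that touched one of the genes or the 20 kb on either side of it, which gave 12 of the 93418 peaks deposited for the 4 samples. Per the labels, all muscles came from male C57BL/6 mice, 5 months old and anaesthetised with xylazine and Zoletil. Stimulated muscles had performed 50 eccentric contractions, each evoked at 100 Hz for 600 ms and 30 s apart, and were collected at once, whereas unstimulated muscles were the contralateral ones. There were 2 samples per condition, each a pool of 6 mice, so differences between single animals are not visible. Whole muscle was used, and a peak found in a few nuclei or weakly in many cannot be told apart.

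The proteins of the family are basic leucine zipper factors and the Jun component of activator protein-1 (AP-1), in which they pair with each other or with Fos proteins. c-Jun, the product of *Jun*, is the partner activated by the c-Jun N-terminal kinases (JNK), JunB is an immediate early protein that is also known to help maintain the size of muscle fibres, and JunD is present in most resting cells. Phosphorylation of serine 10 is known to appear on the chromatin of immediate early genes within minutes of a stimulus, where the kinases MSK1 and MSK2 place it.

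The 4 lists of peaks differed in length. They held 9094 and 32740 peaks in unstimulated replicates 1 and 2, and 10901 and 40683 peaks in stimulated replicates 1 and 2. No read counts are given with the peaks, so the depth behind each list is unknown and no counting interval can be given. Unstimulated replicate 1 stood apart from the others, since 522 of its peaks, or 5.74%, lay on chromosome X, against 19, 19 and 16 peaks in unstimulated replicate 2 and stimulated replicates 1 and 2. It also had 0 peaks on chromosome Y, where these lists had 7, 6 and 6, although the labels give male mice for all samples. The source of this difference was not tested. The 3 genes lie on autosomes, and their values are given below for each list, so that they can be read without that one. Among 12 genes that mark skeletal muscle fibres, 3 and 8 carried a peak in the unstimulated lists and 8 and 7 in the stimulated lists, where the shares over all protein-coding genes were 11.9% and 31.2%, and 16.0% and 42.3%. A peak in both stimulated lists was found on 5 of the 12, and on 2706 of the 21911 protein-coding genes. *Myh4*, the myosin heavy chain of fast fibres, was covered over 5.43% and 43.1% in the unstimulated and over 32.3% and 61.1% in the stimulated samples. *Acta1*, the skeletal muscle actin, was covered over 0% and 90.01% in the unstimulated and over 53.6% and 60.8% in the stimulated samples, so for both genes the values of the conditions overlapped. They overlapped too for *Tnnt3*, the fast troponin T, with 5.92% and 13.2% unstimulated against 4.21% and 9.93% stimulated, and for *Atp2a1*, the calcium pump of fast fibres, with 2.43% and 11.3% against 8.86% and 22.5%. They did not overlap for *Pvalb*, the calcium buffer parvalbumin, with 0% and 4.02% against 13.9% and 32.5%. These were the 5 markers with a peak in both stimulated lists. *Ckm* and *Actn3* had their highest value in unstimulated replicate 2. *Ckm* was covered over 0% and 14.4% unstimulated against 1.53% and 0% stimulated, and *Actn3* over 0% and 2.52% against 1.498% and 0%. The highest value was a stimulated one for *Tnni2* (0% and 21.5% against 0% and 76.7%), *Tnnc2* (0% and 0% against 19.7% and 0%) and *Myh1* (0% and 0% against 0% and 2.03%). *Mylpf*, a fast myosin light chain, and *Myh2*, the myosin of fast oxidative fibres, had no peak in any list. Of 4 genes that mark white blood cells, 0 had a peak in 3 of the lists and 3 had one in stimulated replicate 2, with at most 3.28% of the gene covered, beside the share of 42.3% over all protein-coding genes in that list.

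H3S10ph peaks lay on *Jun* and *Jund* in both stimulated samples, on *Junb* in stimulated replicate 1, and on no gene of the family in unstimulated muscle. The number of family genes with a peak was 0 and 0 in the unstimulated lists and 3 and 2 in the stimulated lists. For comparison, of all protein-coding genes 11.9% and 31.2% were hit in unstimulated replicates 1 and 2, and 16.0% and 42.3% in stimulated replicates 1 and 2. Short genes were hit less often, and among the 3418 genes of 1000 to 5000 bp these shares were 0.936% and 4.53% in unstimulated and 2.08% and 10.3% in stimulated muscles. Among the 1269 genes with a single annotated exon they were 0.63% and 2.29% in unstimulated and 1.26% and 5.2% in stimulated muscles. The mean number was 2.5 ± 0.707 genes (SD, n = 2) in stimulated and 0 genes in unstimulated muscles, without overlap between the conditions (two-sided exact permutation test, p = 0.333). With 2 samples against 2 this test cannot give a p below 0.333, which holds for each comparison here.

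The pattern of *Jun* and *Jund*, which were hit in each stimulated and in no unstimulated sample, was found on 600 protein-coding genes, or 2.74%. The reverse pattern was found on 151, or 0.689%, and on 0 genes of the family. Among genes of 1000 to 5000 bp the pattern of *Jun* and *Jund* was found on 11, or 0.322%, and among genes with a single annotated exon on 3, or 0.236%. These 3 genes were *Jun*, *Jund* and *Ier2*, an immediate early gene, which was singled out after its values were seen. When the stimulated peaks also had to reach a −log10 p of 3, the cutoff given in the methods, 12 genes, or 0.0548%, were left, and *Jun* and *Jund* were among them.

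**Figure D1:**
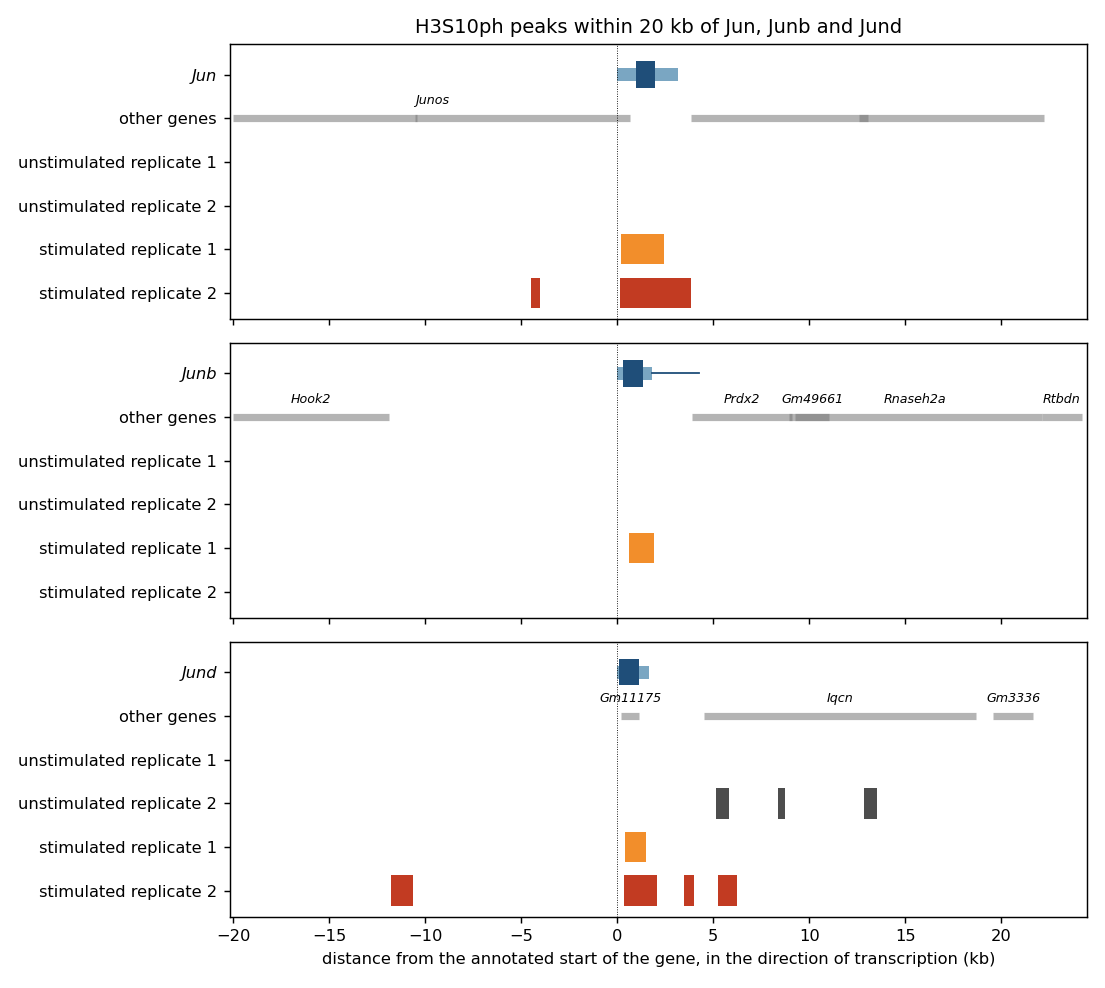
Peaks of the 4 lists (grey for unstimulated, orange and red for stimulated samples) against the distance in kb from the annotated start of each gene, in the direction of transcription. Dark blue boxes are coding and light blue boxes untranslated sequence, the thin blue line is the second transcript of *Junb*, and grey bars are other annotated genes; on the 3 genes themselves only stimulated samples have peaks, whereas beyond the 3′ end of *Jund* unstimulated replicate 2 has 3.

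*Jun* (ENSMUSG00000052684) occupies chr4:95049034-95052222 of mm10 and is read from the minus strand. Its single exon holds 951 bp of 5′ untranslated sequence, 1005 bp of coding sequence and 1233 bp of 3′ untranslated sequence. The unstimulated lists covered 0% of *Jun*, and the stimulated lists covered 69.6% in replicate 1 and 94.8% in replicate 2. Both stimulated samples were thus above both unstimulated samples, with a mean of 82.2% ± 17.8 (SD, n = 2) against 0% (exact permutation test, two-sided p = 0.333). The peaks began 212 bp and 165 bp after the annotated start, so their first edges were 47 bp apart. At the other end they differed by 1411 bp, since the peak of replicate 1 stopped within the 3′ untranslated part, of which it covered 38.7%, and that of replicate 2 ran 655 bp past the end of the gene. The stretch common to both peaks, 2221 bp long, held 100% of the coding sequence. The nearest unstimulated peaks were 136.8 kb away in replicate 1 and 43.6 kb away in replicate 2.

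*Jund* (ENSMUSG00000071076) occupies chr8:70698949-70700616 and is read from the plus strand. It is a single exon with 109 bp of 5′ untranslated, 1026 bp of coding and 533 bp of 3′ untranslated sequence. Peaks covered 0% of it in both unstimulated lists, 66.0% in stimulated replicate 1 and 79.9% in stimulated replicate 2. The mean in stimulated muscles was 73.0% ± 9.84 (SD, n = 2), and the conditions did not overlap (exact permutation test, two-sided p = 0.333). As on *Jun*, the first edges of the peaks lay close together, at 391 bp and 335 bp after the annotated start, which is 56 bp apart, and both were in the coding sequence. The last edges were 570 bp apart, and the peak of replicate 2 passed the 3′ end by 394 bp. The peaks covered 72.5% and 78.0% of the coding sequence, and none of the 5′ untranslated part. *Gm11175*, annotated as an antisense gene, overlaps *Jund* by 919 bp, most of which lies under these peaks, and the peaks cannot be divided between them. RefSeq starts *Jund* 1210 bp further upstream, and on that longer gene the covered share was 38.3% and 46.3%, a measure added after the data had been seen.

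*Junb* (ENSMUSG00000052837) is found on the same chromosome as *Jund*, at chr8:84974484-84978718, and is read from the minus strand. It is annotated with 2 transcripts, of which the coding one, 1809 bp long, has a single exon, while the other is non-coding, is spliced and extends further downstream. *Junb* therefore counts as a single-exon gene by its coding transcript only. The covered share was 0% in both unstimulated lists, 30.4% in stimulated replicate 1 and 0% in stimulated replicate 2. The stimulated samples differed from each other by more than the conditions did, with a mean of 15.2% ± 21.5 (SD, n = 2) against 0% (exact permutation test, two-sided p = 1.0). Over the coding transcript alone, an extent added after the data had been seen, the covered share in stimulated replicate 1 was 64.9%, close in value to the 69.6% of *Jun* and the 66.0% of *Jund* in the same list. This peak began 635 bp after the start, later than those of the other genes, and covered 66.6% of the coding sequence and 100% of the 3′ untranslated part of that transcript. It was a weak peak, with a −log10 p of 2.23, and at a −log10 p of at least 2.5 no peak was left on *Junb*. In the longer list of stimulated replicate 2 the nearest peak to *Junb* was 58.5 kb away.

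**Figure D2:**
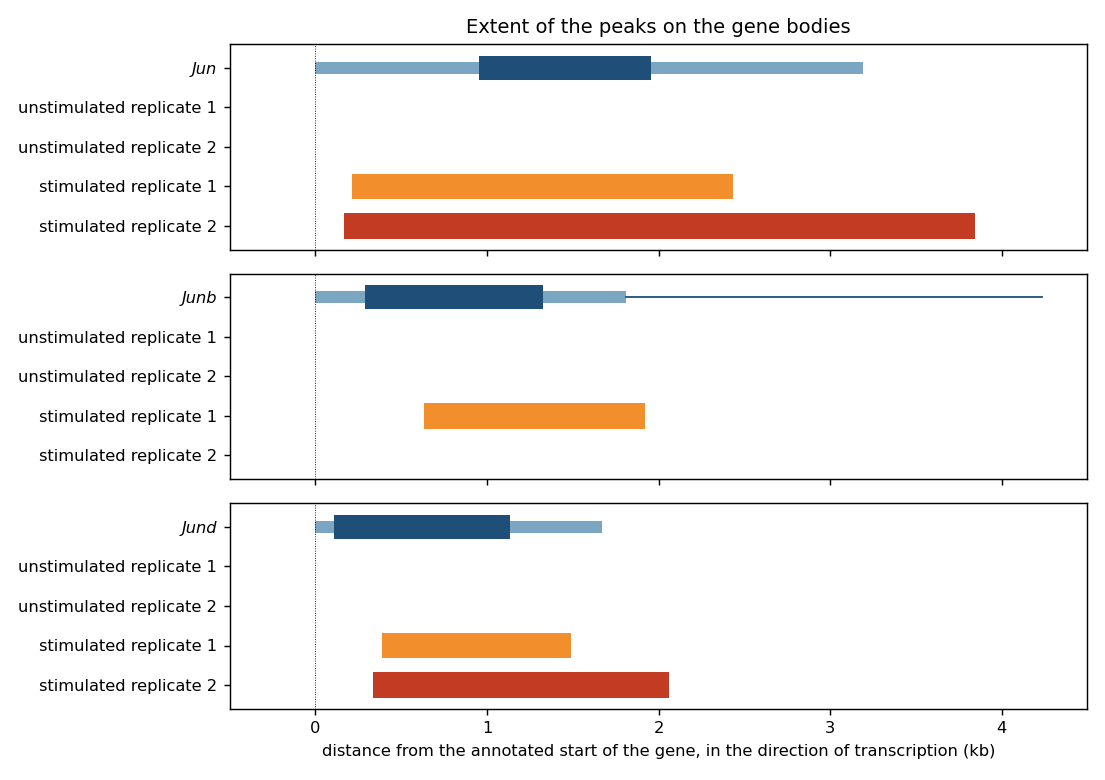
Peaks on the gene bodies by list, against the distance in kb from the annotated start in the direction of transcription; wide dark blue boxes are coding sequence, narrow light blue boxes untranslated sequence, and the thin line the rest of the *Junb* gene. On *Jun* and *Jund* the peaks of the stimulated samples begin within 47 bp and 56 bp of each other and end 1411 bp and 570 bp apart.

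All 5 peaks on the genes began after the annotated start and lay over the coding sequence. A search slid 90 bases without gaps along the coding sequences, aligned by their stop codons with limited shifts, and left out their first part. The stretch in which the 3 genes resembled each other most in this search is shown because it lay inside each of the 5 peaks. It encodes the basic region with which Jun proteins hold DNA, and 63 of its 90 bases are the same in all 3 genes. It is at chr4:95050420-95050509 on the minus strand in *Jun*, chr8:84977548-84977637 on the minus strand in *Junb* and chr8:70699841-70699930 on the plus strand in *Jund* (GRCm38, the assembly of mm10). Capitals mark the 27 bases that are not the same in all 3:
Jun: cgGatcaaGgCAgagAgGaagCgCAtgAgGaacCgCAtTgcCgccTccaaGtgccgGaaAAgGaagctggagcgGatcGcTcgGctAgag
Junb: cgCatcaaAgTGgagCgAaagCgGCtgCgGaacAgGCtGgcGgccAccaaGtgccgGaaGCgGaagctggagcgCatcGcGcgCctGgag
Jund: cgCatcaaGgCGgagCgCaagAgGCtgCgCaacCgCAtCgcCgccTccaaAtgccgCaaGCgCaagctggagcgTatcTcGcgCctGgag

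In this stretch *Junb* and *Jund* shared 82.2% of the bases, *Jun* and *Jund* 77.8%, and *Jun* and *Junb* 76.7%. The longest run of identical bases over the whole coding transcripts was 20 bases between *Jun* and *Jund* and 14 bases for each of the other pairs. Reads that fit several places had been removed by the authors before peak calling. The 3 genes are rich in G and C. The GC content was 55.5% for *Jun*, 56.6% for *Junb* and 67.1% for *Jund*, which is above that of 94.4%, 96.2% and 99.8% of the protein-coding genes. The peaks on them were among the GC-rich peaks of their lists too, with 61.3%, 59.9% and 67.1% for *Jun*, *Junb* and *Jund* in stimulated replicate 1 and 53.4% and 64.4% for *Jun* and *Jund* in replicate 2, where the medians of all peaks were 44.5% in both. Among the 760 genes of 1000 to 5000 bp with a GC content of at least 55%, a class formed after the data had been seen, 0.132% and 4.61% had a peak in the unstimulated lists and 2.5% and 16.8% in the stimulated lists, and 5, or 0.658%, showed the pattern of *Jun* and *Jund*. The part of base composition in the result was not tested.

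No peak of any list covered the promoters. The 250 bases before the RefSeq start are shown for *Jun* and *Junb*, the genes whose RefSeq and GENCODE starts are the same or 30 bp apart, because the peaks stop short of them. The promoter of *Jun* is chr4:95052223-95052472 and that of *Junb* is chr8:84978749-84978998, both on the minus strand of GRCm38.p6. Capitals mark matches on either strand to TGACATCA (the form of the AP-1 site known from the *Jun* promoter), to CCAAT and to GGGCGG (the GC box):
Jun: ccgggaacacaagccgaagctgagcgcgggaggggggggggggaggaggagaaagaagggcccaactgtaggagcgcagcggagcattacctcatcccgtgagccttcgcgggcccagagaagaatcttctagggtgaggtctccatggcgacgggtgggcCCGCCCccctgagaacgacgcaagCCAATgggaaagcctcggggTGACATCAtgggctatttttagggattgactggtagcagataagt
Junb: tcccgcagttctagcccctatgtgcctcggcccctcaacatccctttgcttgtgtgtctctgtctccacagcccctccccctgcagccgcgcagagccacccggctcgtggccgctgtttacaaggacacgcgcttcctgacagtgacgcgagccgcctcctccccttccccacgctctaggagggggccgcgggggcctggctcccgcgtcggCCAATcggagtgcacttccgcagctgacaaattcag

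The match to TGACATCA begins 45 bases before the start of *Jun*, and 2.93% of 32851 mouse promoters of that length hold this motif. The CCAAT box begins 65 bases before the start of *Jun* and 36 bases before that of *Junb*, and 33.8% of promoters hold it, while the GC box was matched once in *Jun* and is held by 32.7%. The AP-1 site TGACTCA was searched too and had 0 matches in either promoter, against 4.46% of all promoters. The same holds for the cAMP response element TGACGTCA (1.55%), the TATA box in the form TATAAA (12.4%) and the CArG box, which serum response factor binds (1.47%). The promoter of *Jund* by RefSeq, which ends 1210 bp before the GENCODE start used elsewhere here, held none of these motifs. The bases just before the GENCODE start of *Jund* were not searched. The nearest edge of a peak was 166 bp from the promoter of *Jun* and 666 bp from that of *Junb*.

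The fold enrichment of a peak over the background of its own list, and its rank there, were compared between the genes within each list. In stimulated replicate 1 the peak of *Jund* had a fold enrichment of 2.46 and rank 1558, that of *Jun* 2.38 and rank 2524, and that of *Junb* 2.07 and rank 10568 of 10901. *Jund* and *Jun* were thus in the upper 14.3% and 23.2% of that list, and *Junb* near its end. In stimulated replicate 2 *Jund* and *Jun* were neighbours in the ranking, at ranks 32 and 33 of 40683, with fold enrichments of 3.07 and 3.06. The order of these genes was the other way round by −log10 p. *Jun* had a −log10 p of 3.49 and rank 585 in replicate 1, where *Jund* had 3.19 and rank 1222. In replicate 2 *Jun* had a −log10 p of 5.72 and rank 27, and *Jund* 4.99 and rank 36. Which gene came first therefore depended on the column, whereas *Junb* was last by either, at rank 10756 by −log10 p. No test applies to these ranks, since each is a single peak. After correction for multiple testing by the peak caller, the −log10 q was 1.29 for *Jun* and 0.776 for *Jund* in replicate 2, and 0.0470, 0.0234 and 0 for *Jun*, *Jund* and *Junb* in replicate 1. None of these peaks reached a −log10 q of 1.3, a usual limit for significance, which 14 and 29 peaks of stimulated replicates 1 and 2 reached. In replicate 2, 29 peaks had a higher −log10 q than that of *Jun*, and 42 a higher one than that of *Jund*. In the shorter list of replicate 1 these numbers were 349 for *Jun*, 460 for *Jund* and 1232 for *Junb*.

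The peaks on *Jun* were also among the widest. They measured 2221 bp in replicate 1 and 3679 bp in replicate 2, as wide as or wider than 99.6% and 99.9% of the peaks of their lists, whose medians were 360 bp and 457 bp. Those on *Jund* measured 1101 bp and 1727 bp, at 95.5% and 98.6%, and that on *Junb* 1287 bp, at 97.9%. On both genes with a peak in each list, the peak of replicate 2 contained the whole peak of replicate 1, which made up 60.4% of it on *Jun* and 63.8% on *Jund*.

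**Figure D3:**
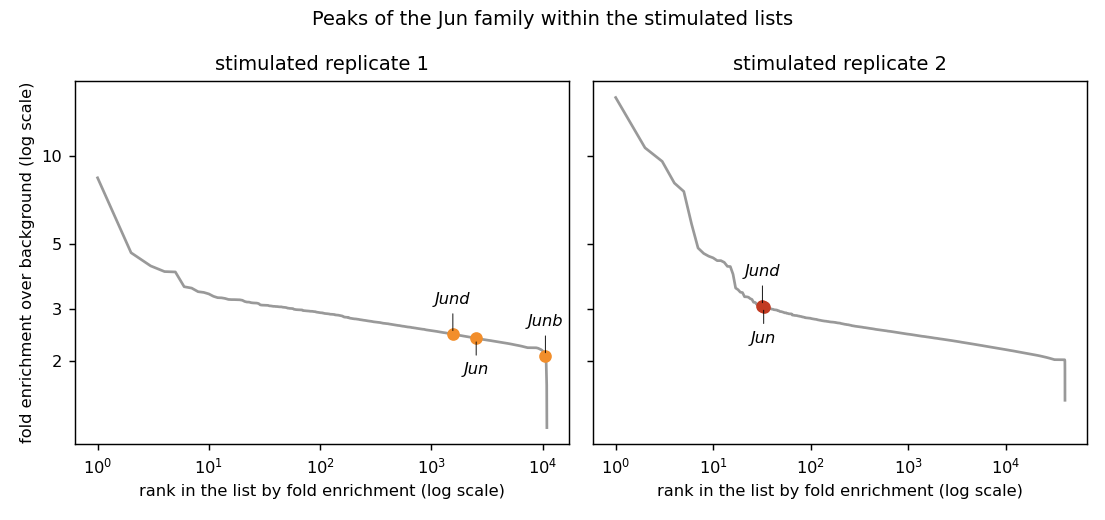
Fold enrichment over background against rank for all peaks (grey lines) of the 2 stimulated lists, both axes on a log scale, with the peaks on the Jun family genes as points. *Jun* and *Jund* stand at ranks 33 and 32 in replicate 2 and at 2524 and 1558 in replicate 1, and *Junb* at 10568.

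The flanks held 7 peaks, 3 in unstimulated and 4 in stimulated muscles, and 1 of these 7 was near *Jun* and 6 near *Jund*. Within 20 kb of *Jun* the covered length was 0 bp in both unstimulated lists, 2221 bp in stimulated replicate 1 and 4160 bp in stimulated replicate 2. The conditions did not overlap, with 3190.5 ± 1371 bp (SD, n = 2) against 0 bp (exact permutation test, two-sided p = 0.333). Besides the peaks on the gene this was a peak of 481 bp in stimulated replicate 2, at −4513 to −4033 bp from the start, with rank 4213. It lay within *Junos*, a long non-coding RNA gene that runs from the 5′ part of *Jun* in the opposite direction and overlaps it by 689 bp, and ChIP reads carry no strand by which peaks on the overlap could be given to either gene. The covered length was 0 bp near *Junb* outside the single peak on the gene, although 5 protein-coding genes lie wholly or partly in its window. Among them are *Prdx2*, which encodes a peroxiredoxin and overlaps *Junb* by 351 bp, and *Rnaseh2a*, which encodes the catalytic subunit of ribonuclease H2. None of the 5 had a peak there in any list. The mean covered length around *Junb* was 643.5 ± 910.05 bp (SD, n = 2) in stimulated muscles and 0 bp in unstimulated muscles (exact permutation test, two-sided p = 1.0).

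Around *Jund* the picture was different, because unstimulated replicate 2 had 3 peaks there, all beyond the 3′ end. The covered length within 20 kb was 0 bp in unstimulated replicate 1, 1767 bp in unstimulated replicate 2, 1101 bp in stimulated replicate 1 and 4335 bp in stimulated replicate 2. The conditions overlapped, with 883.5 ± 1249 bp against 2718 ± 2287 bp (SD, n = 2), and the difference was smaller than the spread between stimulated replicates (exact permutation test, two-sided p = 0.667). Between samples of the same number the stimulated value was the higher in both cases, with 1101 bp against 0 bp for the shorter lists of replicate 1 and 4335 bp against 1767 bp for the longer lists of replicate 2 (exact sign-flip permutation test over the 2 pairs, two-sided p = 0.5, the smallest it can give). With flanks of 10 kb the conditions did not overlap, with 0 bp and 1053 bp against 1101 bp and 3233 bp (exact permutation test, two-sided p = 0.333). The difference of the means, 1834.5 bp, was 951 bp without unstimulated replicate 1, 2718 bp without unstimulated replicate 2, 3451.5 bp without stimulated replicate 1 and 217.5 bp without stimulated replicate 2. The 3 unstimulated peaks lay on *Iqcn*, a neighbour that starts 2841 bp after the end of *Jund*. The first of them, from 5127 to 5828 bp after the start of *Jund*, overlapped a peak of stimulated replicate 2 from 5255 to 6246 bp. These flanking peaks were weak, the 3 unstimulated ones having fold enrichments of 2.02 to 2.11 and ranks of 14024 to 24254 in a list of 32740. Stimulated replicate 2 had further peaks at −11767 to −10666 bp and at 3490 to 4003 bp from the start, with ranks 23467 and 31585. At a −log10 p of at least 2.5 only the peaks on *Jund* itself were left. For comparison, a peak within 20 kb was found for 19.4% and 57.5% of all protein-coding genes in unstimulated muscles, and for 30.7% and 69.4% in stimulated muscles.

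The covered share of the gene body was set beside that of 11 genes whose products pair with Jun proteins or compete for the same sites. Of these, 1 and 5 had a peak in the unstimulated lists and 1 and 8 in the stimulated lists, beside 11.9% and 31.2%, and 16.0% and 42.3%, of all protein-coding genes. *Fos*, the main partner of c-Jun, was the single gene with a peak in both stimulated lists, with 96.4% and 98.7% covered, but 42.5% of it was covered in unstimulated replicate 2 as well. *Fosb* was covered over 11.8% in stimulated replicate 2 and had no peak elsewhere, and the values of the remaining 9 were at most 4.57% in any list. *Batf* and *Batf3* had none. After stimulation *Jun* and *Jund* thus had peaks over most of the gene by GENCODE, as did *Fos*, but over less of it. On the longer RefSeq extent of *Jund* the shares were 38.3% and 46.3%. *Jun* and *Jund* also differed from *Fos* in unstimulated replicate 2, where they had no peak. By fold enrichment the peak on *Fos* had rank 3 (4.22) in stimulated replicate 1 and rank 9 (4.55) in replicate 2. Those on *Jun* and *Jund* had ranks 2524 and 1558 in replicate 1, and 33 and 32 in replicate 2. Of all protein-coding genes, *Fos* alone was at least as covered as *Jun* in both stimulated lists. The share is of the whole annotated gene, so a long annotated extent lowers it. At least as covered as *Jund*, by its GENCODE extent, were *Fos*, *Jun* and *Tcap*, a gene of the sarcomere's Z-disc. Of these, *Jun* alone had no unstimulated peak. *Gadd45g*, also without an unstimulated peak, narrowly missed this cut. It was covered over 94.8% and 79.7% in the stimulated lists, where *Jund* had 66.0% and 79.9%.

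**Figure D4:**
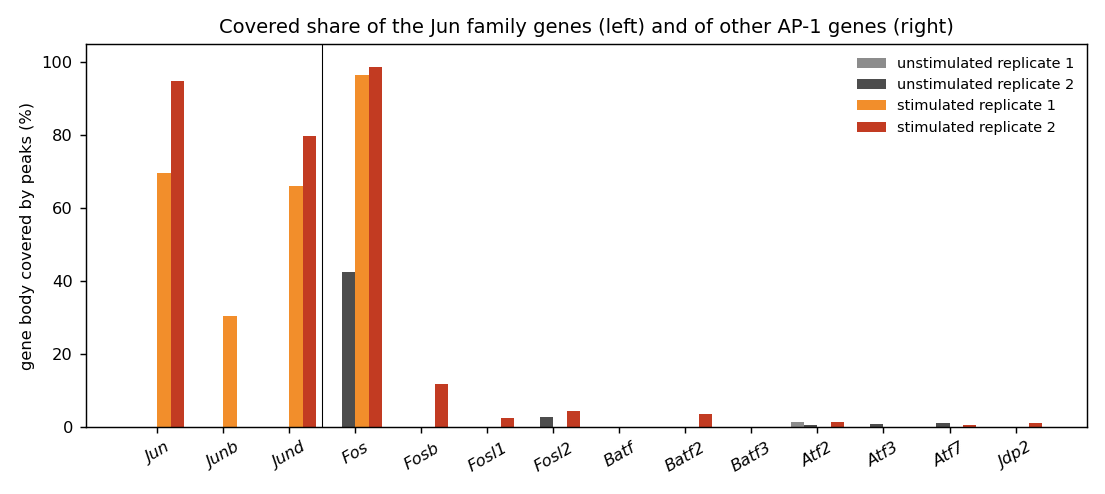
Share of each gene body (%) covered by H3S10ph peaks in the 4 lists, bars from 0, for the Jun family on the left of the line and 11 other AP-1 genes on the right; each bar is 1 sample. *Jun* and *Jund* have bars between 66.0% and 94.8% in both stimulated samples and 0% in both unstimulated samples, and *Fos* has 42.5% in unstimulated replicate 2.

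Genes with a like pattern were sought by the Euclidean distance of the covered shares over the 4 lists, among protein-coding genes of a length like that of each member (from 0.5 to 2 times), as a description only. *Jund* was nearest to *Jun*, and *Jun* to *Jund*, at a distance of 15.3 percentage points. This holds for the GENCODE extent of *Jund*. On its longer RefSeq extent *Jund* was covered over 38.3% and 46.3% after stimulation, and distances were not computed for that extent. Next to *Jun* came *Egr1*, with 77.4% and 71.7% covered after stimulation and 0% and 6.10% without it, and *Gadd45g*, with 94.8% and 79.7% against 0% and 0%. Next to *Jund* came *Ier2*, with 47.2% and 60.5% against 0% and 0%, and again *Gadd45g*. The genes nearest to *Junb*, each covered in stimulated replicate 1 alone, were *Zp1*, *Sertad1* and *Gm13030*, with 32.3%, 27.6% and 26.2%. Thus *Junb* was not near the other members by this measure, which uses the whole annotated gene.

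Of 15 genes of the JNK pathway, which activates c-Jun, 5 and 12 had a peak in the unstimulated lists and 5 and 12 in the stimulated lists, where 11.9%, 31.2%, 16.0% and 42.3% of all protein-coding genes had one. The counts were the same in both conditions. The 15 genes are annotated over 9158 bp (*Map2k7*) to 303387 bp (*Mapk10*), and short genes were hit less often. The shares over all protein-coding genes are not matched for length, so the counts cannot be read as an excess over them. The median covered share was 0% and 0.893% in unstimulated and 0% and 1.37% in stimulated muscles, against 0% in each list over all protein-coding genes. A peak in both stimulated lists was found on 4 of them, as on 2706 of the 21911 protein-coding genes. These were *Map3k4* (0.489% and 1.82% covered) and *Map3k5* (0.345% and 1.27%), kinases at the head of the pathway, *Mapk8ip1* (2.38% and 6.18%), a scaffold protein of JNK, and *Dusp1* (2.82% and 5.84%, of an annotated 56539 bp), a phosphatase that inactivates MAP kinases. Each of these 4 also had a peak in unstimulated replicate 2. *Mapk8*, which encodes JNK1, was covered over 1.77% and 1.00% in the unstimulated samples, 0% in stimulated replicate 1 and 3.93% in stimulated replicate 2. *Mapk9*, which encodes JNK2, was covered over 0.958% in stimulated replicate 2 and had no peak elsewhere. Of the 15 genes, 0 were hit in each stimulated and in no unstimulated sample. Since 2.74% of all protein-coding genes showed this pattern, a count of 0 does not set a list of this length apart.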

How the data were processed

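H3S10ph was measured by ChIP-seq in 4 pools of mouse gastrocnemius muscle. Per the methods, the authors mapped reads to mm10, removed multi-mapping reads, reduced replicates to equal read numbers and called broad peaks against input DNA in each sample with MACS2 (2.1.1 in the submitters' processing notes). The deposited lists give each peak's fold enrichment, a ratio over background, and its p-value and q-value as −log10. The methods state a p cutoff equal to a −log10 p of 3, but all lists reach a −log10 p of about 2, and 12.9%, 2.93%, 17.7% and 3.22% of the peaks (unstimulated, then stimulated replicates) reached 3. Weaker peaks are not listed, so the absence of a peak is not the absence of the mark.

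Peaks were assigned to GENCODE M21 genes (GRCm38) by an overlap of at least 1 bp, and no peak ran past the end of any of 21 chromosomes. Sequences were read from the RefSeq copy of GRCm38.p6 with pysam 0.24.0, and the promoters are RefSeq's, which matched all 3 genes. Python 3.11.15, numpy 2.4.6, pandas 2.3.3 and matplotlib 3.10.9 were used. Covered shares were compared over samples with exact two-sided permutation tests. The calculation of covered lengths was tested on simulated data, and the permutation tests on small fixed examples. Fold, p and rank were used only within a list. Named were the 3 genes, their neighbours with peaks, *Fos*, listed genes with a peak in both stimulated lists, and the 3 nearest genes by covered share; others were named after their values were seen. Members and lists were chosen with earlier results of these data known. Alternatives were stricter p thresholds, lists of equal length, merged peaks, other overlaps, extents and flanks, and leaving out each replicate.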

Additional observations from a re-analysis of the deposited data

How the results depend on the processing

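Under 92 alternatives for 7 comparisons, 81 kept the direction of the difference, 0 turned it, and 11 moved it to 0, all of them for *Junb*. These counts were in large part fixed in advance. Except for the covered length around *Jund*, both unstimulated values were 0 in each comparison. Stricter thresholds, equal list lengths or leaving out a replicate could then only keep the direction or give 0. Taking the replicate numbers as pairs, also counted, leaves the mean difference unchanged by arithmetic. The covered share of *Junb* (15.2 percentage points higher in stimulated muscles) and the covered length within 20 kb of it (643.5 bp higher) both became 0 at a −log10 p of at least 2.5, at 3, and with the 9094 top peaks of each list by fold enrichment or by −log10 p, because the peak lies below these limits; the covered length was also 0 when only the flanks were counted. Leaving out one replicate gave 0 to 30.4 percentage points and 0 to 1287 bp for *Junb*, the values of 0 being those without stimulated replicate 1. It gave 69.6 to 94.8 percentage points for *Jun*, 66.0 to 79.9 for *Jund*, and 2.0 to 3.0 family genes. The difference around *Jund* became 1414 bp at both p thresholds and with both kinds of top peaks. Under each of these the unstimulated lists had 0 bp and the stimulated lists 1101 bp and 1727 bp. The conditions around *Jund* then no longer overlapped (exact permutation test, two-sided p = 0.333). The covered share of *Jund*, 73.0 percentage points higher in stimulated muscles, became 38.5 with the gene extended by 1000 bp, and 42.3 with the RefSeq extent, which was added after seeing the data. That of *Junb* became 32.4 over the coding transcript and 31.9 over the RefSeq extent, both added likewise. Counting only the flanks gave 568 bp around *Jun* and 617.5 bp around *Jund*, against 3190.5 and 1834.5 bp, and flanks of 50 kb gave 2932 bp around *Jund*.

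Replicate numbers are shared between the conditions, but the labels do not say that they mark the same mice, although per the study stimulated and contralateral muscles were taken from the same animals. With the numbers taken as a replicate block, the mean differences were those of the unpaired comparison, 82.2, 15.2 and 73.0 percentage points for *Jun*, *Junb* and *Jund*, 3190.5, 643.5 and 1834.5 bp around them, and 2.5 genes, and 2 pairs cannot give a two-sided p below 0.5. No depth is known, so it cannot be said at which depth the lists would lose these peaks.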

Other observations

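Of 12 genes known as targets of AP-1 in other cells, 0 and 5 had a peak in the unstimulated lists and 2 and 5 in the stimulated lists. Over all protein-coding genes the shares were 11.9% and 31.2%, and 16.0% and 42.3%, so these counts do not set the list apart. The 2 with a peak in both stimulated lists were *Ccnd1*, which encodes cyclin D1, and *Dusp1*. *Ccnd1* was covered over 3.17% and 6.12% and had no unstimulated peak. *Dusp1* was covered over 2.82% and 5.84%, and over 1.65% in unstimulated replicate 2. These shares of *Dusp1* are of an annotated 56539 bp, and a long annotated extent lowers the share that a peak covers. *Mt1* and *Mt2*, neighbouring metallothionein genes singled out after their values were seen, had no peak in 3 lists and were covered over 56.3% and 100% in stimulated replicate 2. *Vegfa*, the gene of vascular endothelial growth factor A, was covered over 21.9% in stimulated replicate 2 and 7.76% in unstimulated replicate 2. *Mmp3*, *Timp1*, *Il6* and *Gja1* had no peak in any list. *Mmp9*, *Plaur* and *Hmox1* had a peak in unstimulated replicate 2 alone, over 1.75%, 3.79% and 4.72% of the gene. Of 4 markers each of satellite cells, endothelium and fibroblasts, 0 had a peak in unstimulated replicate 1, 1, 2 and 2 in unstimulated replicate 2, 1 of each in stimulated replicate 1, and 2, 4 and 1 in stimulated replicate 2, beside 11.9%, 31.2%, 16.0% and 42.3% of all protein-coding genes. *Tek*, an endothelial receptor kinase, was the single one of these with a peak in both stimulated lists, over 0.0685% and 0.594% of the gene, and was covered over 0.199% in unstimulated replicate 2.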
